A study of Homo sapiens with 3 samples.

Results

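The autophagy and lysosome genes are 41 genes that build autophagosomes, tag cargo for them or equip the lysosome, and the members were taken as every probe set whose platform gene symbol is exactly one of those 41 names. They were read by 106 of the 41091 probe sets that name a single gene, and they make up 41 of 19775 such genes. The RNA came from undifferentiated khES3 cells, an established human embryonic stem cell line. One culture was kept for 5 hours in leucine-deprived medium, one for 5 hours in lysine-deprived medium and one for 5 hours in complete medium. Each medium had 1 Affymetrix array, so no difference below has a replicate check or a p-value, and effects of the medium, the culture, the RNA and the array cannot be told apart. Leucine and lysine are both essential amino acids, which human cells take up because they cannot make them.

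Autophagy encloses cytoplasm in a double membrane and delivers it to the lysosome, where acid hydrolases return amino acids to the cell. When amino acids are plentiful, the kinase complex mTORC1 holds back both the ULK1 kinase, which starts autophagosome formation, and the transcription factors TFEB, TFE3 and MITF, which switch on lysosomal and autophagy genes once they enter the nucleus. Both controls act on proteins, through phosphorylation and location, which RNA arrays do not read. A further route to some autophagy genes runs through ATF4 and CHOP, transcription factors of the amino acid stress response.

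The values are MAS5 signals per probe set, and a difference is given in log2 units, where 1 stands for a 2-fold difference. Signals under the 40th percentile of an array (56.7 on the leucine-deprived, 62.4 on the lysine-deprived and 54.6 on the complete-medium array) were raised to that floor. A gene was called measured where a probe set naming it alone had a mean signal over the 3 arrays of at least 107.4, the median over such probe sets, and the brightest of its kept probe sets gave its value. By that filter 40 of the 41 genes were measured, on 80 kept probe sets, as were 11850 genes of the whole array. The only error these arrays offer is the spread between probe sets of one gene, which leaves out the spread between cultures. Among the 25 members with several kept probe sets that SD was 0.39 for leucine-deprived over complete medium, 0.54 for lysine-deprived over complete medium and 0.55 for leucine- over lysine-deprived medium. Over 5309 genes it was 0.44, 0.52 and 0.53.

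All 6 check genes of the amino acid response stood at least 2-fold higher after both deprivations, where 2.45% and 3.99% of all genes did. These 6 genes were chosen with earlier results of these data known, so their count is only a description. After leucine removal they ran from ASNS (1.29) through SESN2, CHAC1, DDIT4 and DDIT3, which encodes CHOP, to TRIB3 (3.80), and after lysine removal from SESN2 (1.22) to TRIB3 (3.75). Of 12 stem cell markers 10 were measured, and their summed signal was 231451 on the leucine-deprived, 239260 on the lysine-deprived and 222368 on the complete-medium array. Of 12 fibroblast and feeder cell markers 7 were measured, with summed signals of 38786, 41715 and 40484 in the same order, whereas COL3A1, LUM, DCN, PDGFRB and FAP were below the filter. Of 13 germ layer markers 3 were measured, with summed signals of 1733 and 2671 against 1639. After lysine removal the mesoderm gene TBXT was 1.41 and the neural gene OTX2 0.65 higher, against 0.24 and 0.12 after leucine removal. The remaining one, GATA6, did not follow them, being level after lysine removal (0.004) and -0.57 after leucine removal. The part of these markers in the results was not tested. In such bulk RNA fewer cells of a type and less RNA per cell cannot be told apart. The ratio of 3′ to 5′ control probe sets, which grows as RNA is broken or copied short, stood for ACTB at 7.55 on the leucine-deprived and 11.2 on the lysine-deprived array, against 5.44 in complete medium. For GAPDH it differed less, at 1.23 and 1.25 against 1.08 in the same order. The part of these RNA measures in the differences below was not tested. Both deprived cultures are set against the same complete-medium array. Median centring of the arrays moved the median of all genes to -0.12 for leucine removal and -0.26 for lysine removal, against 0.01 and -0.00 as deposited, so differences of that size can change sign with the scaling.

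TFEB, the transcription factor that drives the coordinated lysosomal gene network, showed the greatest difference of the 40 measured members after both deprivations. Its kept probe set (50221_at) read 262 on the leucine-deprived and 351 on the lysine-deprived array, against 72.1 in complete medium. The signal was thus well clear of the floor in both deprived cultures and only just above it in complete medium. TFEB was 3.64-fold higher after leucine removal (1.86) and 4.87-fold higher after lysine removal (2.28), which ranked it 41 and 30 from the top among 11850 genes. Its second probe set (221866_at) fell below the level filter, with signals of 132 on the leucine-deprived and 74.8 on the lysine-deprived array against 14.9 in complete medium. With the complete-medium value at the floor, that probe set was at least 2.42-fold higher after leucine removal and at least 1.37-fold higher after lysine removal. Both probe sets were therefore higher in both deprived cultures, by sizes that did not match. TFEB was the member that passed the level filter only through the deprived arrays, since 72.1 lies below 107.4, so its difference and rank are a description of these signals. With the floor raised to the 60th percentile the complete-medium value was at the floor and the TFEB difference became a bound, of 0.97 after leucine and 1.39 after lysine removal.

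TFE3 encodes the close relative of TFEB that acts on the same genes, and its signals lay well above the floor. Its value came from 212457_at, with signals of 3754 on the leucine-deprived and 4368 on the lysine-deprived array against 2822 in complete medium, which is 0.41 and 0.63 higher. Another kept probe set, 206649_s_at, read 591 and 407 against 414, which is 0.51 after leucine removal and -0.02 after lysine removal. TFE3 was thus higher on both probe sets after leucine removal and on 1 of them after lysine removal. MITF, best known from pigment cells, was the member without a measured probe set. Its brightest probe set read 121 on the leucine-deprived and 87.7 on the lysine-deprived array against 107 in complete medium, and its next read 86.4 and 116 against 89.8. These dim signals took opposite orders, and no difference is given for MITF.

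**Figure D1:**
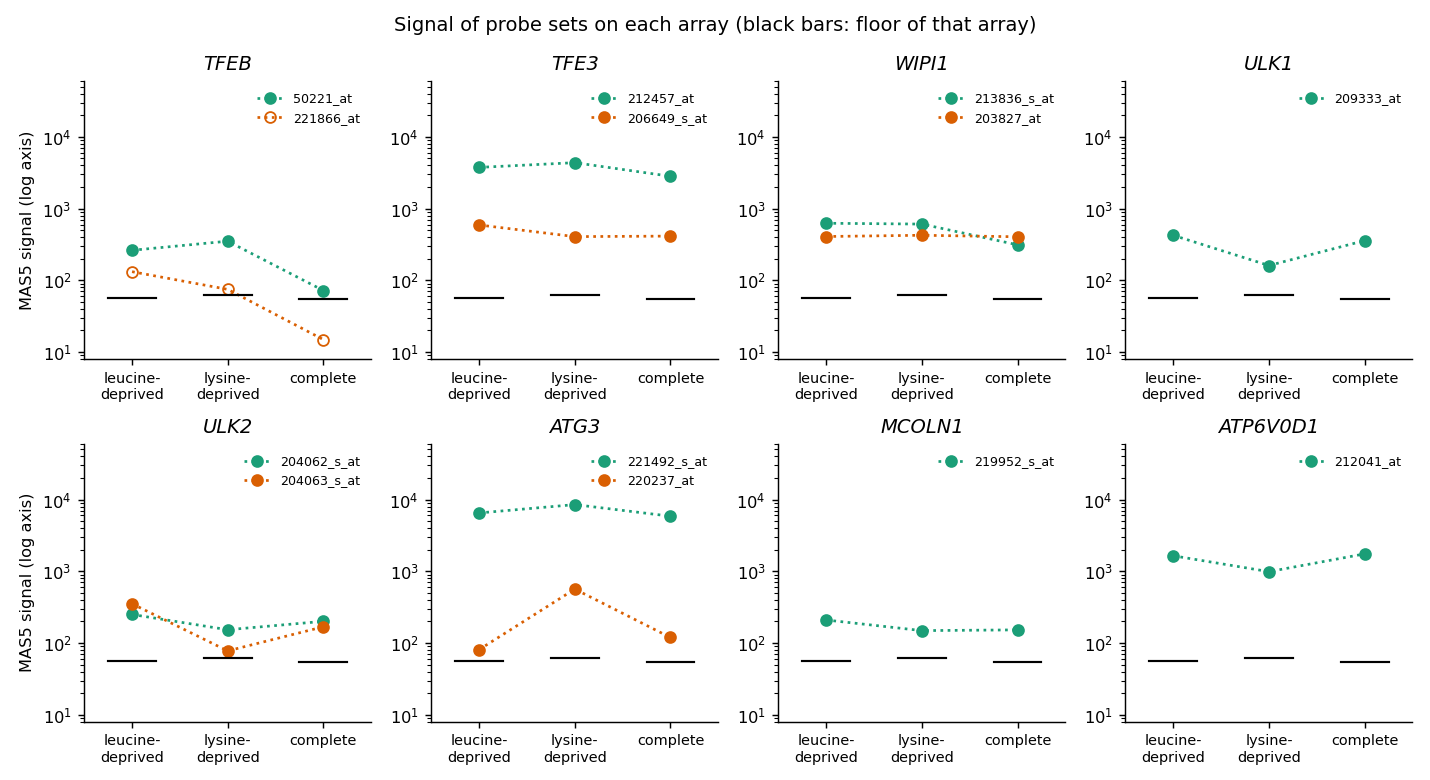
MAS5 signal on a log axis for 8 genes on the leucine-deprived, lysine-deprived and complete-medium array, with 1 colour per probe set; open circles mark a probe set below the level filter and black bars the floor of each array. The kept TFEB probe set is higher in both deprived cultures (262 and 351 against 72.1), WIPI1 is higher on 1 of its probe sets (625 and 608 against 312), and ULK1 is low in the lysine-deprived culture (161).

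The ULK complex, which starts autophagosome formation, gave the member that stood lowest after lysine removal. ULK1, its kinase, read 424 on the leucine-deprived and 161 on the lysine-deprived array against 358 in complete medium. It was 0.25 higher after leucine removal and 2.22-fold lower after lysine removal (-1.15), on the 1 probe set it has. Of genes of like signal 95% lay between -1.24 and 1.30 for lysine removal, and ULK1 lay just inside. ULK2, the related kinase, read 250.2 on the leucine-deprived and 153 on the lysine-deprived array against 201 in complete medium (204062_s_at), which is 0.32 and -0.39. A second kept probe set (204063_s_at) read 353 and 77.7 against 169, which is 1.07 and -1.12. Both kept ULK2 probe sets, like ULK1, were thus higher than complete medium in the leucine-deprived culture and lower in the lysine-deprived one. Another ULK2 probe set (1554112_a_at), below the filter, went against them, with 66.1 and 183 against 67.7. So did 215154_at, also below the filter, with 4.90 (under the floor) and 126 against 88.3.

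The ULK partner proteins differed less. ATG13, the adaptor that links the kinase to its scaffold, read 617 and 628 on the leucine- and lysine-deprived arrays against 482 in complete medium, 0.36 and 0.38 higher. Its 3 kept probe sets ran from -0.19 to 1.35 after leucine removal and from 0.38 to 1.70 after lysine removal. RB1CC1, the scaffold also called FIP200, read 2215 and 2923 against 2151, and its other kept probe set read 2199.8 and 3122 against 1469. On both probe sets of RB1CC1 the lysine-deprived array was the highest, by 0.44 and 1.09 over complete medium. ATG101, which stabilises ATG13, was 0.19 and 0.15 higher.

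The lipid kinase complex, which marks the forming membrane with PI3P, was nearly level across the arrays. BECN1, its regulatory subunit, read 1394 on the leucine-deprived and 1593 on the lysine-deprived array against 1453 in complete medium. PIK3C3, the catalytic subunit, read 1863 and 1904 against 1721. ATG14, which directs the complex to autophagy, read 1187 and 1143 against 1146. All 3 lay between -0.06 and 0.15 in both deprivations, within the spread between probe sets of a gene. A dim second probe set of PIK3C3 (239300_at, 179 in the lysine-deprived culture against 81.3 in complete medium) differed by 1.14, unlike its bright one.

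WIPI1, which binds PI3P on the growing membrane and whose transcript is known to be raised in starved human cell lines, came next after TFEB on its brightest probe set. That probe set (213836_s_at) read 625 on the leucine-deprived and 608 on the lysine-deprived array against 312 in complete medium. The differences of 0.9998 and 0.96 fell just short of 2-fold, the first by the narrowest margin of any member. The other kept probe set (203827_at) read 408 and 425 against 405, which is 0.01 and 0.07. The WIPI1 difference therefore rests on 1 of 2 probe sets, and the mean over both was 0.51 after leucine removal. WIPI2, which recruits the conjugation machinery, differed by -0.14 and -0.08 on its brightest probe set, with its 4 probe sets between -0.14 and 1.02 after leucine and between -0.13 and 0.39 after lysine removal. ATG2A, the lipid transfer protein, read 339 and 561 against 452, and ATG9A, the membrane scramblase, read 420.0 and 249 against 365. ATG2A and ATG9A took opposite orders on the 2 deprived arrays, each on 1 probe set.

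The conjugation enzymes attach ATG8 proteins to the membrane, and on their brightest probe sets none of the 7 reached 2-fold over complete medium. Of all genes 2.45% were 2-fold higher and 1.36% lower after leucine removal, and 3.99% and 2.03% after lysine removal. A list of 7 would hold few or none at those shares. ATG16L1, which sets the site of conjugation, read 389 on the leucine-deprived and 295 on the lysine-deprived array against 275 in complete medium, 0.50 and 0.10 higher. ATG5, its partner, was level at 3358 and 3236 against 3292. ATG12, which is joined to ATG5, read 4560.2 and 4518 against 3724, though its 3 probe sets ran from -0.63 to 0.91 after lysine removal. ATG7, the E1-like activating enzyme, read 267 and 172 against 313, the lowest conjugation gene after lysine removal at -0.87. Its other kept probe set differed by only -0.09. ATG4B, the protease that trims ATG8 proteins, read 1487 and 829 against 1154, and the leucine-deprived array exceeded the lysine-deprived one on all 3 of its probe sets, by 0.51 to 0.84. ATG10, the E2-like enzyme for ATG12, had 3 kept probe sets between -0.96 and 0.28 after leucine removal and between -0.39 and 0.66 after lysine removal.

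ATG3, the E2-like enzyme for ATG8 proteins, showed how far probe sets can part. Its bright probe set (221492_s_at) read 6508 on the leucine-deprived and 8505 on the lysine-deprived array against 5864 in complete medium, 0.15 and 0.54 higher. The dim one (220237_at) read 81.0 and 565 against 119, which is -0.56 and 2.24. Both were highest on the lysine-deprived array, and only the dim one passed 2-fold.

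The ATG8 proteins, which coat the autophagosome and hold cargo receptors, were nearly level on most probe sets. MAP1LC3B, the usual autophagosome marker as protein, read 2299.9 on the leucine-deprived and 2469 on the lysine-deprived array against 2781 in complete medium. GABARAP read 7002 and 5816 against 7242, and GABARAPL2 read 6632 and 6973 against 6697. Their differences lay between -0.32 and 0.06. GABARAPL1 read 2190.4 and 2520.3 against 1756 on one probe set (0.32 and 0.52) and 1224 and 1068 against 1338 on the other (-0.13 and -0.33). The probe sets of GABARAPL1 thus ran opposite ways, and another that it shares with GABARAPL3 differed by 0.22 and -0.07.

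Cargo receptors stayed under 2-fold on their brightest probe sets. SQSTM1, the receptor p62 for ubiquitin-tagged cargo, read 4173 on the leucine-deprived and 3209 on the lysine-deprived array against 3169.7 in complete medium, so on its brightest probe set it was 0.40 higher after leucine removal and level after lysine removal (0.02). The other kept probe sets of SQSTM1 differed by -0.15 and 0.46 after leucine removal and by -0.19 and 1.05 after lysine removal, the last from a dim probe set (213112_s_at, 174 against 84.3). NBR1, a relative of p62, read 1004 and 855 against 1081 and OPTN, a receptor in mitophagy, 1069.6 and 1116 against 1065. Their second probe sets were higher than complete medium in part, NBR1 by 0.38 and 0.48 and OPTN by 0.52 after leucine removal only (-0.02 after lysine removal).

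The lysosomal membrane genes differed little from complete medium. MCOLN1, the calcium channel of the lysosome, read 209 on the leucine-deprived and 149 on the lysine-deprived array against 153 in complete medium, 0.46 higher and level. LAMP1, a main glycoprotein of the lysosomal membrane, read 22814 and 18005 against 18839.8, and LAMP2, its partner, read 5149.8 and 4920.4 against 5586. Over their 4 probe sets each, LAMP1 lay between -0.63 and 0.28 and LAMP2 between -0.75 and 0.15 over both deprivations.

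Of the 6 hydrolase genes none reached 2-fold over complete medium. After leucine removal 2.45% of all genes were 2-fold higher and 1.36% lower, and after lysine removal 3.99% and 2.03%. At those shares a list of 6 would hold few or none. CTSD, an aspartic protease, read 498 on the leucine-deprived and 352 on the lysine-deprived array against 344 in complete medium, 0.53 and 0.03 higher. CTSA, which protects other lysosomal enzymes, read 1376 and 804 against 1141, 0.27 and -0.51. CTSB, a cysteine protease, was read by 5 kept probe sets, and all 5 were higher after leucine removal, by 0.14 to 0.83. After lysine removal 4 of the 5 CTSB probe sets were higher (0.13 to 0.74) and 1 was lower (-0.41). CTSL, another cysteine protease, read 1451 and 1657 against 1688. HEXA and NEU1, enzymes of glycolipid and sialic acid breakdown, differed by 0.06 and 0.03 after leucine removal and by -0.06 and -0.32 after lysine removal.

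The V-ATPase pumps protons into the lysosome, and mTORC1 is activated on its surface. ATP6V0D1, a subunit of the membrane sector, read 1645 on the leucine-deprived and 989 on the lysine-deprived array against 1748 in complete medium, so it was level after leucine removal (-0.09) and 1.77-fold lower after lysine removal (-0.82). That put it below the range of 95% of genes of like signal, which was -0.72 to 0.77. ATP6V1H, a regulatory subunit, read 2024 and 1493 against 1907, and its second probe set read 119 and 78.6 against 146, both lower after lysine removal. ATP6V1A, the catalytic subunit, read 5051 and 4432 against 3446, 0.55 and 0.36 higher, but its dimmer probe set differed by -0.17 and -0.47.

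**Figure D2:**
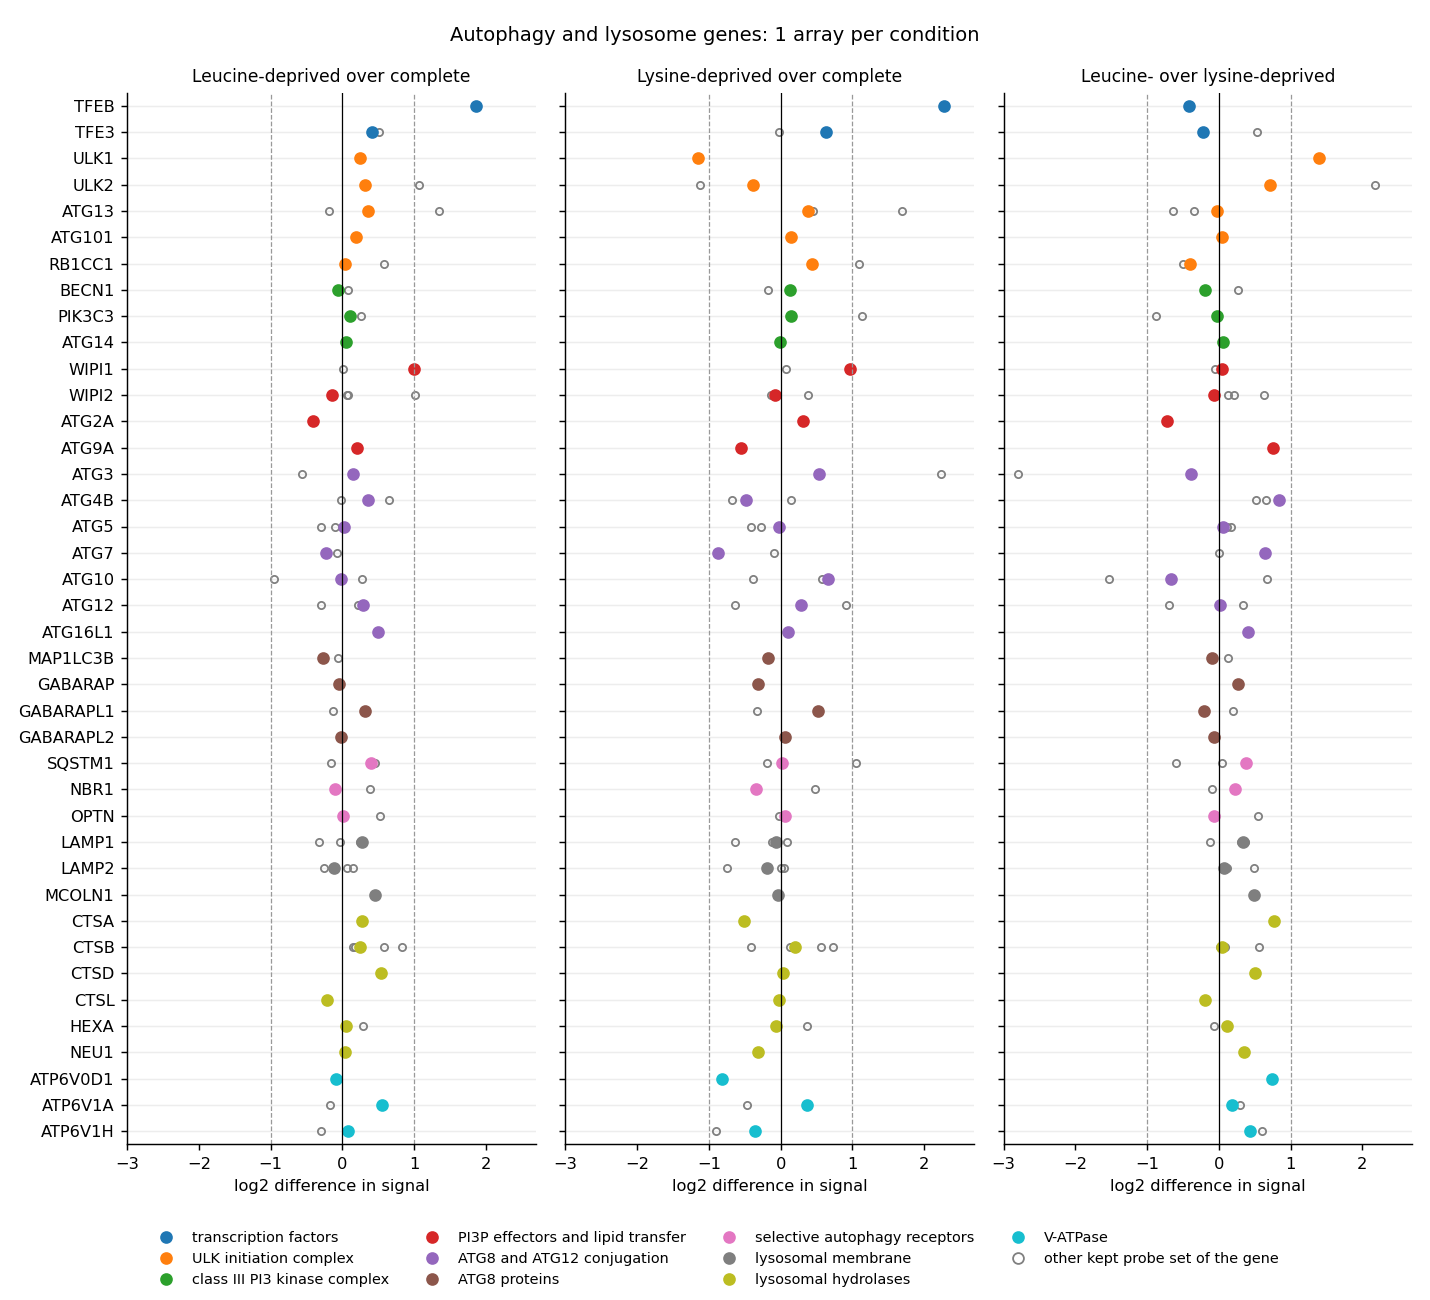
Log2 difference in signal for the 40 measured genes, ordered and coloured by role, for leucine-deprived over complete, lysine-deprived over complete and leucine- over lysine-deprived medium; filled points are the brightest kept probe set, open points the others, and dashed lines mark 2-fold. Only TFEB passes 2-fold over complete medium on the higher side and only ULK1 on the lower side (-1.15, after lysine removal) among filled points.

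TFEB and its relatives bind the palindromic sequence TCACGTGA, the core of the CLEAR element named for coordinated lysosomal expression and regulation. The RefSeq promoter windows (GRCh38.p14, 250 bases before to 50 after the annotated start, 300 in all) were searched on both strands for it, and windows were found for 35 of the 41 genes, 45 windows in all. It was present in windows of 5 of those genes, ATG3, LAMP1, ATP6V0D1, MCOLN1 and CTSA. That is 5 of the 45 windows (11.1%), against 0.980% of all 35116 windows. The shorter TCACGTG, which every TCACGTGA contains, was found in 8 genes, the 5 above with NEU1, CTSD and ATG14. It was in 8 of the 45 windows (17.8%), against 3.71% of all windows. The members were chosen as autophagy and lysosome genes, and the difference in shares was not tested. The 250 bases before the start are shown for the 4 genes whose TCACGTGA lies there, in capitals, read 5′ to 3′ on the strand of the gene, because these are the lysosomal members whose promoters carry the letters that TFEB proteins recognise.
MCOLN1 (chr19:7522374-7522623, plus strand): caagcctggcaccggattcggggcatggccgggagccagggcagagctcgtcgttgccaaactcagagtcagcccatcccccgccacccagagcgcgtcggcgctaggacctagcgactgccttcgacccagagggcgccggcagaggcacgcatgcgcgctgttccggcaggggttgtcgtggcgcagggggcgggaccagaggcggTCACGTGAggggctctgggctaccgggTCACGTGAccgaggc
CTSA (chr20:45891085-45891334, plus strand): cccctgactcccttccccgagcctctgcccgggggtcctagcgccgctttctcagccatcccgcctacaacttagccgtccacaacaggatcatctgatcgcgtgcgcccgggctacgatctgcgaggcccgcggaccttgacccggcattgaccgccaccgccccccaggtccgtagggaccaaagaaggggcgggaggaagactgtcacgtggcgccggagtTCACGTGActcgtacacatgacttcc
LAMP1 (chr13:113296989-113297238, plus strand): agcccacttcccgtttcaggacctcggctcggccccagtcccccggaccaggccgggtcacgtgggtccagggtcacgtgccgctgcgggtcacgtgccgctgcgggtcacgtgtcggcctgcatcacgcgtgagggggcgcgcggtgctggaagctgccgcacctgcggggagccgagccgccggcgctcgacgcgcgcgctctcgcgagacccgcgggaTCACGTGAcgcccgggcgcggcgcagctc
ATP6V0D1 (chr16:67481158-67481407, minus strand): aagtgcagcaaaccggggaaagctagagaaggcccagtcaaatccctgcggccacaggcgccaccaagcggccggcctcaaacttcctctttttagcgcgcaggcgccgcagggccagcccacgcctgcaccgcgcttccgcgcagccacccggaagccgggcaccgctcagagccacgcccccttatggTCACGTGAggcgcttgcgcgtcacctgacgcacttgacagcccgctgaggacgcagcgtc

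Of the 4 genes shown, MCOLN1, CTSA and LAMP1 differed by 0.46, 0.27 and 0.28 after leucine removal and ATP6V0D1 by -0.09. After lysine removal MCOLN1, CTSA, LAMP1 and ATP6V0D1 differed by -0.03, -0.51, -0.07 and -0.82. On their brightest probe sets they were 0.49, 0.78, 0.34 and 0.73 higher on the leucine- than on the lysine-deprived array. The 8 genes with TCACGTG in a window had a median difference of 0.21 after leucine removal and -0.05 after lysine removal. The 26 measured genes with a window but without those letters had medians of 0.15 and 0.06. Between the leucine- and the lysine-deprived array the 8 genes had a median of 0.42, with 7 above 0. The 26 genes had a median of -0.01 there, with 13 above 0. The differences between these groups of genes were not tested. The 3 TFEB windows held no TCACGTG. The core of the amino acid response element bound by ATF4, TGATGNAA, was in no window of the 35 genes and in 3.62% of all windows. In LAMP1 a further TCACGTGA begins 2 bases before the start and runs across it, and in ATG3 the match lies after the start, so neither is shown. A match is a string of letters and not a bound site, and a missing match says nothing of sites outside the window.

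Counted together, the shares of members past 2-fold were near those of genes at large. After leucine removal 1 of 40 measured members, TFEB, was at least 2-fold higher with neither array at the floor, against 2.45% of 11681 genes. No member was 2-fold lower, against 1.36%. After lysine removal 1 of 40, again TFEB, was at least 2-fold higher, against 3.99% of 11656 genes, and 1, ULK1, was 2-fold lower, against 2.03%. Between the leucine- and the lysine-deprived array 1 of 40, ULK1 (1.40), was at least 2-fold higher, against 1.98% of 11649 genes, and none was 2-fold lower, against 2.60%.

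Over kept probe sets the picture was similar but less tidy. After leucine removal 4 of 80 were at least 2-fold higher, against 2.55% of probe sets. They belong to TFEB, ULK2 (1.07), ATG13 (1.35) and WIPI2 (1.02), and apart from TFEB each gene had a brighter probe set under 2-fold. None of the 80 was 2-fold lower after leucine removal, against 1.83%. After lysine removal 6 of 80 were at least 2-fold higher, against 4.20%, namely those of TFEB, ATG3 (2.24), ATG13 (1.70), PIK3C3 (1.14), RB1CC1 (1.09) and SQSTM1 (1.05). The counted probe sets of TFEB, ATG13, WIPI2, PIK3C3 and SQSTM1 passed the level filter only through the deprived arrays. Their complete-medium signals were 72.1, 96.1, 89.7, 81.3 and 84.3, below 107.4. Both counts of higher probe sets are therefore only a description of these signals. The 2 probe sets that were 2-fold lower after lysine removal, against 2.78%, were those of ULK1 and ULK2. Between the deprived arrays 2 of 80 were at least 2-fold higher in the leucine-deprived culture, against 2.43%, on probe sets of ULK1 and ULK2, and 2 of 80 were 2-fold lower, against 3.12%, on the dim probe sets of ATG3 (-2.80) and ATG10 (-1.53).

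Small differences were counted by direction. With any size counted, 28 of 40 members were higher after leucine removal, against 51.4% of genes, and 12 were lower, against 48.6%, with a median of 0.13 against 0.01 over all genes. After lysine removal 20 of 40 were higher, against 49.7%, and 20 lower, against 50.3%, with a median of 0.01 against -0.00. With the arrays centred on their medians 21 of 40 members were higher after leucine removal (median 0.04), against 35.6% of genes, and 10 of 40 after lysine removal (median -0.26), against 28.7%. That centring shifts all genes alike, so the counts move with the shares over all genes. Among the 25 members with several kept probe sets, 8 had all of them higher after leucine removal, against 23.7% of genes, and 5 after lysine removal, against 22.7%. After leucine removal those 8 were TFE3, ULK2, RB1CC1, PIK3C3, WIPI1, OPTN, CTSB and HEXA. All were lower in 2 members after leucine removal, ATG7 and MAP1LC3B, against 22.1%, and in 5 after lysine removal, ULK2, ATG5, ATG7, MAP1LC3B and ATP6V1H, against 23.5%.

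The bands of like signal count TFEB although its mean was set by the deprived arrays. Against them 2 of 40 members lay outside the middle 95% after leucine removal, TFEB and WIPI1, and 2 after lysine removal, TFEB and ATP6V0D1, where 5.06% of all genes did so. Between the deprived arrays 4 of 40 lay outside, ULK1, ATG4B (0.84), CTSA (0.78) and ATP6V0D1 (0.73), all higher on the leucine-deprived array, against 5.06%.

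**Figure D3:**
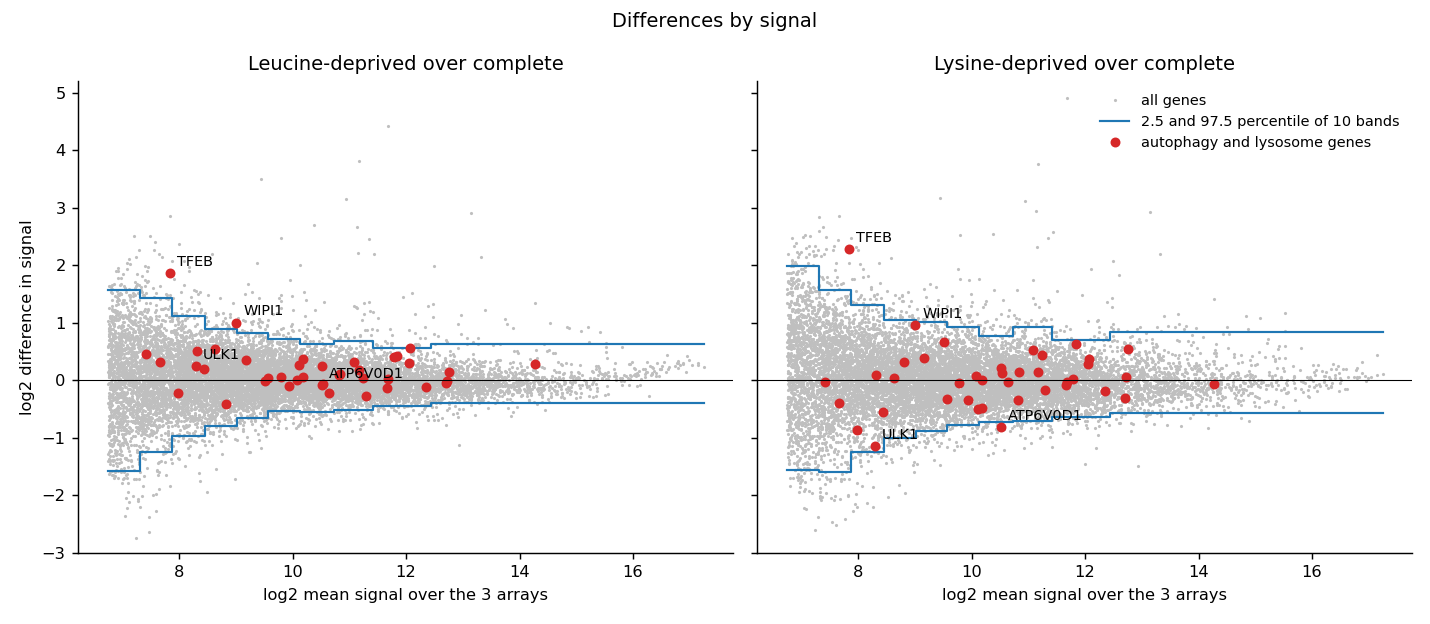
Log2 difference over complete medium against log2 mean signal over the 3 arrays, for leucine removal (left) and lysine removal (right); grey dots are 11850 genes, red points the 40 measured autophagy and lysosome genes, and blue steps the 2.5 and 97.5 percentiles of 10 equal bands of signal. The spread narrows as signal grows, and 2 of 40 members, TFEB among them, lie outside the steps in each.

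The direct comparison of the deprivations uses the complete-medium array only in the mean signal behind the level filter and choice of probe set. In it 25 of 40 members were higher on the leucine-deprived array, against 52.5% of genes, and 15 were lower, against 47.5%, with a median of 0.05 against 0.02 over all genes. By their brightest probe sets all 3 lysosomal membrane genes were higher on the leucine-deprived array than on the lysine-deprived one, with a median of 0.34 (LAMP2 0.07, LAMP1 0.34 and MCOLN1 0.49). One LAMP1 probe set, 201552_at, went the other way (-0.12), and it gives the value of LAMP1 when probe sets marked as shared are left out. All 3 V-ATPase genes were higher as well (median 0.44, from ATP6V1A at 0.19 to ATP6V0D1 at 0.73), as were 5 of 6 hydrolases (median 0.23, the exception CTSL at -0.19). These counts were the same under median, quantile and cyclic loess scaling. The transcription factor genes TFEB (-0.42) and TFE3 (-0.22) were lower there under each of those scalings too, although the other TFE3 probe set was 0.54 higher and the TFEB probe set below the filter 0.82 higher, so both directions rest on 1 of 2 probe sets. Beyond the members, 18 of 35 further lysosomal genes were higher on the leucine-deprived array (median 0.06), near the share of all genes. Of 12 further V-ATPase genes 10 were higher there by their brightest probe sets (median 0.26), though ATP6V0E1 had another kept probe set at -1.66. Of the 25 members with several kept probe sets 8 had all of them higher on the leucine-deprived array, against 22.8% of genes: ULK2, ATG7, CTSB, ATG5, LAMP2, ATP6V1A, ATP6V1H and ATG4B. In 4 all were lower, against 18.0%: RB1CC1, ATG3, PIK3C3 and ATG13.

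Of the members, 12 are known from mouse fibroblasts to need ATF4 or CHOP for their induction when leucine is missing, among them MAP1LC3B, SQSTM1, ATG3, ATG12, ATG16L1, BECN1 and GABARAPL2. By their brightest probe sets none of the 12 was 2-fold higher in either deprived khES3 culture, where 2.45% and 3.99% of all genes were, so a count of 0 among 12 is near that of genes at large. After lysine removal ATG3 was 1.39 higher averaged over its probe sets and 2.24 on the dim one, and a dim SQSTM1 probe set was 1.05 higher. Their median difference was -0.01 after leucine removal, with 5 of 12 above 0, and 0.04 after lysine removal, with 7 of 12 above 0. ATG16L1 (0.50) and SQSTM1 (0.40) were the highest of the 12 after leucine removal, and ATG10 (0.66) and ATG3 (0.54) after lysine removal.

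By their brightest probe sets, other genes of the pathway passed 2-fold over complete medium in few cases. Of all genes 2.45% were higher and 1.36% lower after leucine removal, and 3.99% higher and 2.03% lower after lysine removal. Lists of these sizes would hold few or none at those shares. Of 21 further core autophagy genes 17 were measured and none passed 2-fold over complete medium on its brightest probe set. The median was -0.02 after leucine and -0.10 after lysine removal. A dimmer probe set of MAP1LC3A differed by -1.08 after lysine removal. ATG4A, a protease for ATG8 proteins, differed by -0.81 and -0.50, ATG4D, a relative of ATG4A, by 0.26 and -0.82, and EPG5, a tether for fusion with the lysosome, by 0.11 and -0.72. All 14 further cargo receptors were measured and none passed 2-fold over complete medium on its brightest probe set. Dimmer kept probe sets differed more, CALCOCO2 by up to 1.33 after leucine and 2.04 after lysine removal. After lysine removal SEC62 reached 1.91 and TOLLIP -1.06 on such probe sets. RETREG1, a receptor for the endoplasmic reticulum, differed by -0.91 after leucine removal and 0.13 after lysine removal. It was 2-fold lower on the leucine-deprived than on the lysine-deprived array (-1.04).

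Of 43 further lysosomal genes 35 were measured, with medians of -0.03 and -0.11. By brightest probe sets 1 was 2-fold lower after leucine removal, TMEM192 (-1.02), a lysosomal membrane protein. After lysine removal 1 was 2-fold lower, ARSB (-1.32), a sulfatase whose second probe set was 0.69 higher. On dimmer probe sets NPC1 reached -1.43 and IDS -1.46 after leucine removal. A dimmer TPP1 probe set reached 1.10 after leucine removal, and the lowest stood at -1.76 after lysine removal. Of 13 further V-ATPase genes 12 were measured and none passed 2-fold over complete medium on its brightest probe set. By their brightest probe sets 10 of the 12 were below 0 after lysine removal, with a median of -0.25. Among them were ATP6V0A1 (256 on the lysine-deprived array against 512 in complete medium) and ATP6V1E1 (2374 against 4552). Other kept probe sets stood above 0 for ATP6V0E1 (up to 1.06), ATP6V0A2 (up to 0.57) and ATP6V1D (up to 0.53). Those of ATP6V0C and ATP6V1C1 were all below 0, and ATP6AP2, above 0 on its brightest probe set, had another at -0.32. After leucine removal 6 of 12 were below 0, with a median of 0.01 (12 of 12 under median centring, against 64.4% of all genes). As deposited, 50.3% of all genes were below 0 after lysine removal. The count of V-ATPase genes was also 10 of 12 under quantile and cyclic loess scaling, and 11 of 12 under median centring, against 71.3% of all genes there.

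Regulators of TFEB on the lysosome were measured for 5 of 6 genes. FLCN, the folliculin tumour suppressor that keeps TFEB phosphorylated, read 830.1 on the leucine-deprived and 955 on the lysine-deprived array against 636 in complete medium, 0.38 and 0.59 higher. RRAGC, a Rag GTPase, read 4991 and 3387 against 3383, 0.56 higher and level. FNIP1, a partner of FLCN, read 1007 and 439.7 against 896, 0.17 and -1.03, while its 3 probe sets ran from -1.03 to 0.66 after lysine removal. FNIP2, also a partner, differed by 0.56 and -0.30, and RRAGD, a Rag GTPase that TFEB itself induces, by 0.02 and -0.65.

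**Figure D4:**
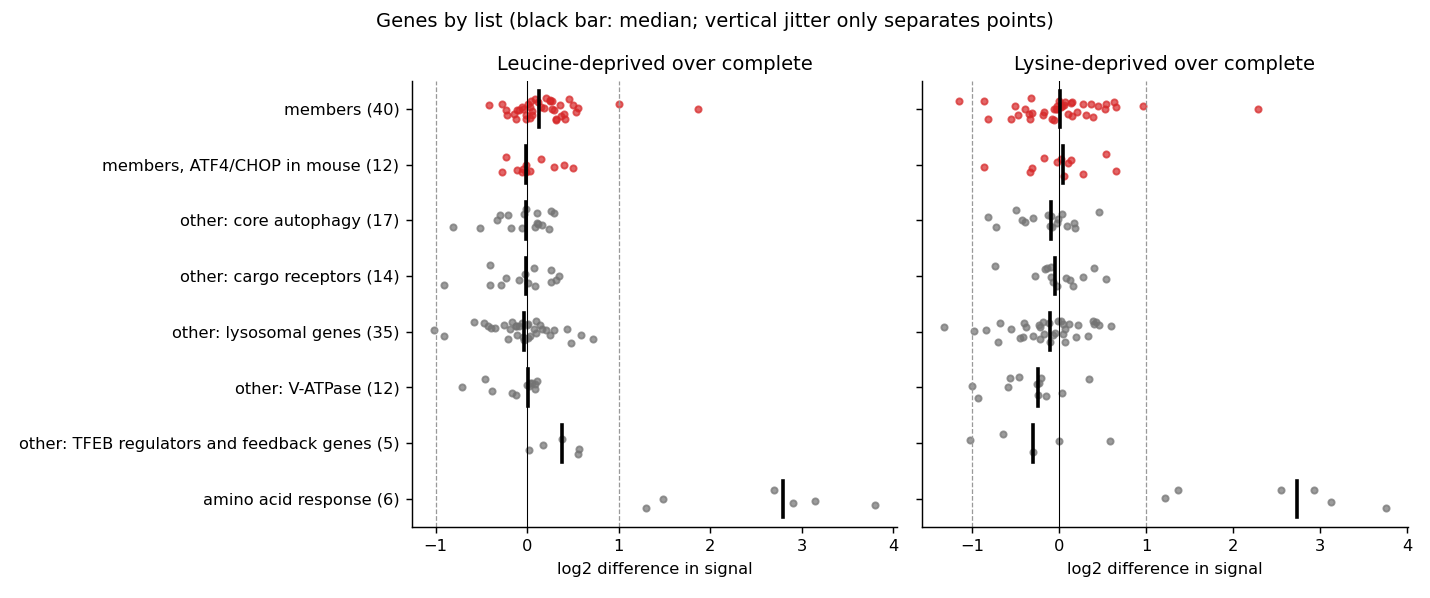
Log2 difference over complete medium of single genes by list, for leucine removal (left) and lysine removal (right); red points are members, grey points other genes, black bars the medians, and dashed lines mark 2-fold. The members centre at 0.13 and 0.01, whereas the 6 amino acid response genes centre at 2.80 and 2.74.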

How the data were processed

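The deposited values are linear MAS5 signal intensities made by the authors, per the submitters' processing notes, with no version or settings stated there. Each array had a 2% trimmed mean of 500.1, a common scale that hides any difference in total mRNA. Detection calls were not used here. The depth is unknown for arrays, and their number limits the precision.

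Of 54675 probe sets 62 are controls and were left out. Gene names came from the platform annotation, and all 41 member symbols matched RefSeq GRCh38.p14 by Entrez identifier. Genes of the other lists that a probe set names only with another gene, or that are absent from the tables, were not analysed here. Signals were floored at the 40th percentile and taken to log2; the level filter, the choice of probe set and the 2-fold threshold are given with the results. Genes of like signal are those in the same of 10 equal bands of mean signal. Up to 4 genes per other list were named, those above the floor on all 3 arrays with the largest mean absolute difference, and all members are accounted for; RRAGC was added after its values were seen. The members and lists were chosen with earlier results of these data known.

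No test was possible with 1 array per group. Alternatives were 3 other scalings, a lower floor (20th percentile), a higher one (60th) or none, no level filter or one at the 70th percentile, averaging over kept probe sets, dropping those whose suffix marks shared transcripts, and thresholds of 1.5- and 3-fold. The calculation was tested on simulated arrays. Python 3.11.15, numpy 2.4.6, pandas 2.3.3, matplotlib 3.10.9, R 4.3.3 and limma 3.58.1 were used.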

Additional observations from a re-analysis of the deposited data

Results flagged for a closer look

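On 3 kept probe sets the deprived cultures moved opposite ways from complete medium by more than the spread between probe sets of a gene. The difference was not tested, since each culture had 1 array. The share of all kept probe sets that would be flagged in this way was not counted, so the 3 are only a description. A ULK2 probe set (204063_s_at) differed by 1.07 after leucine removal and -1.12 after lysine removal. A dim ATG3 probe set (220237_at) differed by -0.56 and 2.24, and an ATG10 probe set (243477_at) by -0.96 and 0.57. Another kept ATG10 probe set (1570523_s_at) differed the reverse way, by 0.28 and -0.39, and the brightest (223677_at) by -0.01 and 0.66.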

How the results depend on the processing

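No paired analysis was possible because each group had 1 array. Of 1134 differences of member genes, each under 8 to 10 of the alternative settings, 1118 stayed within the spread between probe sets of the main value. Of the rest 16 moved beyond it, and 0 turned a call round. Of 1035 for other genes 1010 stayed, 25 moved and 0 turned round. Only differences called 2-fold could turn round, among members those of TFEB and ULK1. The spread (0.44, 0.52 and 0.53) allows small differences to change sign unseen. Such changes were not counted, and ATG3 ran from -0.56 to 0.19 after leucine removal. Counts of members past 2-fold are small and rest on TFEB, ULK1 and the choice of probe set. With the floor at the 60th percentile 0 members were 2-fold higher after leucine removal and 0 after lysine removal, because TFEB in complete medium is then at the floor. With the level filter at the 70th percentile, which leaves 33 members and drops TFEB and ULK1, 0 were higher after leucine removal, 0 higher and 0 lower after lysine removal, and 0 higher between the deprived arrays. Median centring gave 3 lower after lysine removal (ULK1, ATG7 and ATP6V0D1). Averaging over probe sets gave 2 higher after lysine removal (TFEB and ATG3 at 1.39), and between leucine- and lysine-deprived arrays 2 higher (ULK1 and ULK2 at 1.45) and 1 lower (ATG3 at -1.59). Without the probe sets marked as shared, which leaves 25 members, 2 were higher after lysine removal (ATG3 at 2.24), 1 was lower between the deprived arrays, LAMP1 stood at -0.12 between them, and WIPI1 stood at 0.01 after leucine and 0.07 after lysine removal. At 1.5-fold 2 were higher after leucine removal, 4 higher and 3 lower after lysine removal, and 7 higher and 2 lower between the deprived arrays. At 3-fold 0 were lower after lysine removal and 0 higher between the deprived arrays. The brightest ATG10 probe set changed under median centring, to -0.64 after lysine removal against 0.66. Signal close to the floor limits TFEB, ULK2 and the dim probe sets most.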
